A study of Mus musculus with 22 samples.

Results

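The genes described here make, sense and dispose of cholesterol and make fatty acids in the hippocampal CA1 region. There were 32 of them, taken by name from the 23361 genes of the expression matrix: 17 enzymes of sterol synthesis, 5 regulators, 5 genes of cholesterol transport and export, and 5 enzymes of fatty acid synthesis. All 32 were present and passed the filter on low values, a mean of at least 0.1 FPKM over all libraries (FPKM are fragments scaled by exon length and by the mapped fragments of the library). The values came from mRNA sequencing of CA1 tissue microdissected from 22 female mice, F1 of Swiss Webster x DBA/C57BL6, 1 library per mouse. Mice ate ad libitum (AL) or a calorie-restricted (CR) diet reduced in carbohydrates, begun in early adulthood, and were studied at 5 months (AL, n = 5; CR, n = 5) or 15 months (AL, n = 6; CR, n = 6). The mice were wild-type, and no other treatment was given.

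Cholesterol in the brain is made locally, since lipoproteins of the blood do not cross the blood-brain barrier. The mevalonate pathway builds isoprenoids from acetyl-CoA, squalene synthase commits them to sterols, and lanosterol is then trimmed and reduced to cholesterol. When sterols in the endoplasmic reticulum run low, the escort protein Scap lets SREBP transcription factors leave for cleavage and switch these genes on, whereas Insig proteins hold the complex back. Surplus cholesterol is hydroxylated by Cyp46a1 in neurons, so that it can leave the brain, or is loaded onto Apoe particles by Abca1 and Abcg1 in glia.

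Promoters of 25 of the 32 genes, 35 windows in all, were read from RefSeq on GRCm38.p6, each covering 250 bases before to 50 after a listed start. Some listed starts lie inside the annotated gene. The only window of Acaca (chr11:84195188-84195487) does, since that gene begins at 84129672. A pair of motifs was searched on both strands, the CCAAT box (CCAAT, read as ATTGG on the other strand), to which NF-Y binds beside SREBP, and a sterol element spelled TCACNCCAC. Neither motif contains the other. The CCAAT box was found in 13 of 14 sterol synthesis genes (92.9%), 4 of 5 regulators (80%), 1 of 3 transport and export genes (33.3%) and 1 of 3 fatty acid synthesis genes (33.3%), against 41.1% of all genes with such windows. A gene counted if any of its windows held a match, and genes with more windows had more room for one. Per window, in the same order, the shares were 13 of 17 (76.5%), 5 of 10 (50%), 1 of 5 (20%) and 1 of 3 (33.3%). Of all windows 37.4% held the box. The sterol element was found in 1 of the 14 sterol synthesis genes, Hmgcs1 (7.14%), starting at position -137 from the listed start, against 1.44% of all genes. A match is a description of the letters only, and no match says only that these letters are not in the window. The window of Hmgcs1 is shown for holding both kinds of match, those of Lss and Tm7sf2 because these sterol enzymes were called with age below, and that of Cyp46a1 because its level differed most with age. Each is written 5′ to 3′ on the gene's strand, with matches in capitals.
Hmgcs1, chr13:119690101-119690400, plus strand: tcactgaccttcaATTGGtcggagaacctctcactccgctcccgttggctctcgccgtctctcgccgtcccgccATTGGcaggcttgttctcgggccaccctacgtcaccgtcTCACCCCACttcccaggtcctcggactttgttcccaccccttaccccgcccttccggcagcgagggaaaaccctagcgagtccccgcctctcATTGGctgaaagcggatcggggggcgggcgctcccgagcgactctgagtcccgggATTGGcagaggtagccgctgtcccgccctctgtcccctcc
Lss, chr10:76531355-76531654, plus strand: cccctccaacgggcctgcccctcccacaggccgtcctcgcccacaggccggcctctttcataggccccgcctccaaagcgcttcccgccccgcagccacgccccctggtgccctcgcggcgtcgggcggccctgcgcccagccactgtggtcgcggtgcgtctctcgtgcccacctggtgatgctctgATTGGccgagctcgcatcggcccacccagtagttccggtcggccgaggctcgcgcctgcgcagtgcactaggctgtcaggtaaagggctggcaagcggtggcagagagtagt
Tm7sf2, chr19:6067801-6068100, minus strand: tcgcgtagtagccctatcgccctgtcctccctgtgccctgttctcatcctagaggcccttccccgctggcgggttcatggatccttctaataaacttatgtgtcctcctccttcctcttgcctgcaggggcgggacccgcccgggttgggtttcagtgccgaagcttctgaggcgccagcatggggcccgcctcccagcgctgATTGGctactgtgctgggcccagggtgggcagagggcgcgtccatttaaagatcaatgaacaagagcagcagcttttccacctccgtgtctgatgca
Cyp46a1, chr12:108334066-108334365, plus strand: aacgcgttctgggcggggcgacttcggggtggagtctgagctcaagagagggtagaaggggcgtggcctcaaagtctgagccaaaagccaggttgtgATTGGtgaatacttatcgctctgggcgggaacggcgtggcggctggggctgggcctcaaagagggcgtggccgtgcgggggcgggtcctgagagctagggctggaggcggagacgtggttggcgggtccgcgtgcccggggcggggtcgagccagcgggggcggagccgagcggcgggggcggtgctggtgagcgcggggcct

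The libraries had a median FPKM of 2.51 to 3.10 and 18281 to 19175 genes above 0. Such a range of medians is not small beside the differences described here, and results with a common median are given below for AL mice with age. For the other comparisons the directions, list medians and library levels are given without that shift. The FPKM do not give back whole reads, so the depth behind a value is unknown and its precision comes from the spread between mice. The tissue label was checked against marker lists, none of which held a gene at 0 in any library. The 6 CA1 pyramidal neuron markers summed to 231.5 to 506.9 FPKM in AL mice at 5 months, 299 to 439 in CR mice at 5 months, 180 to 278 in AL mice at 15 months and 96.1 to 436.5 in CR mice at 15 months. The 8 markers of neocortex and subiculum, which border CA1, summed to 91.3 to 136, 80.8 to 115, 124 to 255 and 103.5 to 274 in the same order. The 4 dentate gyrus markers summed to 15.9 to 48.2, 11 to 33.4, 4.01 to 36.3 and 8.25 to 95.2. With age in AL mice, 4 of 6 CA1 markers were called lower and 4 of 8 neocortex and subiculum markers higher. The median log2 difference was -1.67 over the CA1 list and 1.06 over the neocortex and subiculum list. Among CA1 markers, Fibcd1 gave 27.0 to 91.7 FPKM at 5 months and 1.45 to 24.1 FPKM at 15 months. Spink8 gave 33.35 to 99.0 and 1.225 to 12.9 FPKM. Wfs1 went the other way, at 33.7 to 88.2 and 70.2 to 106.2 FPKM. Oligodendrocytes, which carry out much of the brain's sterol synthesis, had 8 markers that summed to a median of 1477, 1119, 781 and 863 FPKM in the 4 groups in the same order, 1 of them called lower with age in AL mice. The 7 astrocyte markers summed to a median of 831, 817, 777 and 850 FPKM. The 5 markers of the choroid plexus, which lies beside the hippocampus, summed to 2.43 to 29.3, 8.36 to 234.7, 0.50 to 5.83 and 0.21 to 2.74 FPKM, and with age 3 of them were called lower in AL mice and 4 in CR mice. Their part in the age differences was not tested. In such bulk tissue, fewer cells of a type, less RNA per cell and a dissection reaching into bordering regions cannot be told apart.

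FPKM is scaled by transcript length, so levels could be set side by side between genes. Apoe, the main lipoprotein component secreted by astrocytes, was the most abundant of the 32 with a mean of 795 FPKM over all libraries. That was higher than 99.55% of the 23361 genes of the matrix, tested or not. Scd2, the main stearoyl-CoA desaturase of the brain, followed at 228 FPKM and Cyp46a1, the neuronal cholesterol 24-hydroxylase, at 94.4 FPKM. Within sterol synthesis the highest mean was that of Hmgcs1, the mevalonate pathway's cytosolic HMG-CoA synthase, at 80.9 FPKM, and the lowest that of Hsd17b7, a ketosteroid reductase of the late pathway, at 5.90 FPKM.

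The comparison of AL mice at 15 and 5 months asked how these genes differed with age on a normal diet. Cyp46a1, the desaturase Scd1, the sterol enzymes Lss and Tm7sf2, and Acaca, the acetyl-CoA carboxylase that starts fatty acid synthesis, rose with age, by 1.21-fold to 1.52-fold in mean FPKM. No gene of the 32 was called lower. A gene was called when its limma fit on log2(FPKM + 0.1) gave a Benjamini-Hochberg adjusted p under 0.05 over all 16978 genes. The 5 calls were 15.6% of the 32 genes, a smaller share than the 20.6% of all genes called in this comparison, and all 5 were higher at 15 months, as were 10.7% of all genes. At an unadjusted p under 0.05 there were 8 of the 32 (25%), 7 higher and 1 lower, beside 35.2% of all genes. The number called was 3 without AL 5 months replicate 1 or 4, or without AL 15 months replicate 1 or 5, and 0 with a region score as a covariate, the neocortex and subiculum markers minus the CA1 markers. With that covariate no gene of the 16978 was called.

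All 17 sterol synthesis genes had a higher mean in AL mice at 15 than at 5 months, though 14 with all libraries set to the same median, 15 after quantile normalization and 3 with the region score as a covariate. The median log2 difference was 0.18, in a range from 0.012 to 0.43, whereas the median over all genes was -0.0018 and 49.55% of genes were higher. Of the 17, 2 passed the test and 15 did not. The fit with the region covariate gave a median of -0.22 over the 17. The region markers moved with age, and beyond that fit their part in these differences was not tested.

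Lss (chr10:76531588-76557138, GRCm38), which folds squalene epoxide into lanosterol, the first sterol, gave 7.81, 6.34, 7.69, 7.17 and 7.63 FPKM in the 5 AL mice at 5 months. At 15 months AL mice ran from 8.45 through a median of 9.05 to 10.5 FPKM, so the lowest older library stood above the highest younger one. CR mice overlapped both AL groups, at 8.07, 6.86, 7.24, 8.73 and 8.38 FPKM at 5 months and from 6.75 through 8.41 to 10.1 FPKM at 15 months. The log2 fold change with age in AL mice was 0.33 ± 0.09 (SE; adjusted p = 0.0197, limma), and the call was lost without AL 5 months replicate 1 (0.28, adjusted p = 0.0634). An antisense transcript covers 3.53% of the exon bases of Lss.

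Tm7sf2 (chr19:6062821-6068373), a reductase of the sterol ring's double bond, gave 11.3, 11.1, 9.21, 10.5 and 9.14 FPKM in AL mice at 5 months. Every AL library at 15 months was higher, from 11.9 through 13.9 to 16.4 FPKM. CR mice gave 10.6, 8.86, 12.7, 11.2 and 9.95 FPKM at 5 months and 8.86 through 11.9 to 17.2 FPKM at 15 months, a range that took in both AL groups. The log2 fold change in AL mice was 0.43 ± 0.14 (SE; adjusted p = 0.0307, limma). It was not called after the shift to a common median (0.39, adjusted p = 0.0513), nor without AL 5 months replicate 2 or 4 or AL 15 months replicate 0, 1 or 5 (0.38 to 0.41). In the annotation 12.1% of the exon bases of Tm7sf2 also belong to Vps51 on the same strand, so some of its reads may have been divided between the genes.

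A further 3 sterol enzymes did not overlap between AL mice at 5 and 15 months and yet missed the threshold. Acat2, which joins acetyl-CoA into the pathway's starting unit, gave 11.3, 14.9, 12.04, 12.9 and 14.6 FPKM at 5 months against 15.9 through 16.6 to 17.7 FPKM at 15 months. The gap between the groups was narrow, and the log2 difference of 0.35 ± 0.14 (SE) had an adjusted p of 0.0829 in limma. Its CR libraries gave 12.7, 12.3, 17.3, 16.6 and 12.8 FPKM at 5 months and 9.55 through 15.6 to 19.7 FPKM at 15 months.

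Sqle, the squalene epoxidase that is a control point of the pathway, gave 26.5, 28.3, 23.1, 22.8 and 26.9 FPKM in AL mice at 5 months and 29.6 through 33.5 to 37.7 FPKM at 15 months. Fdft1, the squalene synthase, gave 30.9, 37.4, 31.6, 32.4 and 36.9 FPKM at 5 months and 38.0 through 41.2 to 46.1 FPKM at 15 months. For both genes the AL groups stood apart and the CR groups were wide. CR mice at 15 months ran from 14.6 to 42.4 FPKM for Sqle and from 21.8 to 46.0 FPKM for Fdft1, reaching below every AL library of either age. At 5 months CR mice gave 24.6, 19.8, 32.1, 32.3 and 31.2 FPKM for Sqle and 26.8, 25.1, 45.0, 44.5 and 35.0 FPKM for Fdft1, so 3 of these 5 mice lay above every AL library of that age for Sqle and 2 for Fdft1, with 1 and 2 below every AL library. Fdft1 shares 18.3% of its exon bases with Ctsb on the opposite strand, and the library kit kept no strand. In all, 12 of the 32 genes share exon bases with another annotated gene, 6 of them with a protein-coding one.

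The other 12 sterol synthesis genes overlapped between the AL ages and were not called (adjusted p from 0.164 to 0.947, limma). Pmvk and Mvd, which phosphorylate and decarboxylate mevalonate on the way to the isoprene unit, and the late enzymes Nsdhl and Dhcr7 were above the younger AL mean in 6 of 6 older AL mice. Ggps1, a side branch enzyme that makes the isoprenoid for protein prenylation, and Hsd17b7 lay nearest to no difference, at 15.0 ± 0.81 and 15.2 ± 2.33 FPKM (SD) for Ggps1 and 5.84 ± 0.76 and 5.92 ± 0.92 FPKM (SD) for Hsd17b7 at 5 and 15 months. Hmgcs1 gave 80.0 ± 5.00 FPKM at 5 months (SD, n = 5) and 88.5 ± 8.55 FPKM at 15 months (SD, n = 6), within the spread between mice.

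Mevalonate kinase, Mvk, gave 13.7 ± 1.12 FPKM in AL mice at 5 months and 15.7 ± 1.93 FPKM at 15 months (SD), Pmvk 31.5 ± 2.32 and 36.1 ± 2.52 FPKM, and Mvd 10.6 ± 1.67 and 12.7 ± 0.87 FPKM. For Idi1, which isomerizes the isoprene unit, the values were 23.5 ± 2.91 and 24.7 ± 3.61 FPKM, and for Fdps, which joins these units into farnesyl diphosphate, 48.8 ± 3.73 and 53.2 ± 3.98 FPKM. After lanosterol, the demethylase Cyp51 gave 14.9 ± 0.76 and 16.7 ± 2.25 FPKM, and Ebp, an isomerase of the ring's double bond, 10.1 ± 1.33 and 10.4 ± 1.72 FPKM. In CR mice at 15 months the same genes averaged 14.7 (Mvk), 34.6 (Pmvk), 10.9 (Mvd), 23.0 (Idi1), 56.3 (Fdps), 16.3 (Cyp51) and 11.1 FPKM (Ebp), each within 1 SD of the AL mice of that age except Mvd. Fdps shares 26.7% of its exon bases with another gene model on the same strand.

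Across the non-overlapping genes as a whole, 8 of the 32 separated the AL ages, all higher at 15 months and 5 of them sterol enzymes, beside 14.0% of all genes whose libraries did not overlap, 1234 of those higher and 1150 lower. The plot of FPKM by group gives these 8 and Acaca in every library.

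**Figure D1:**
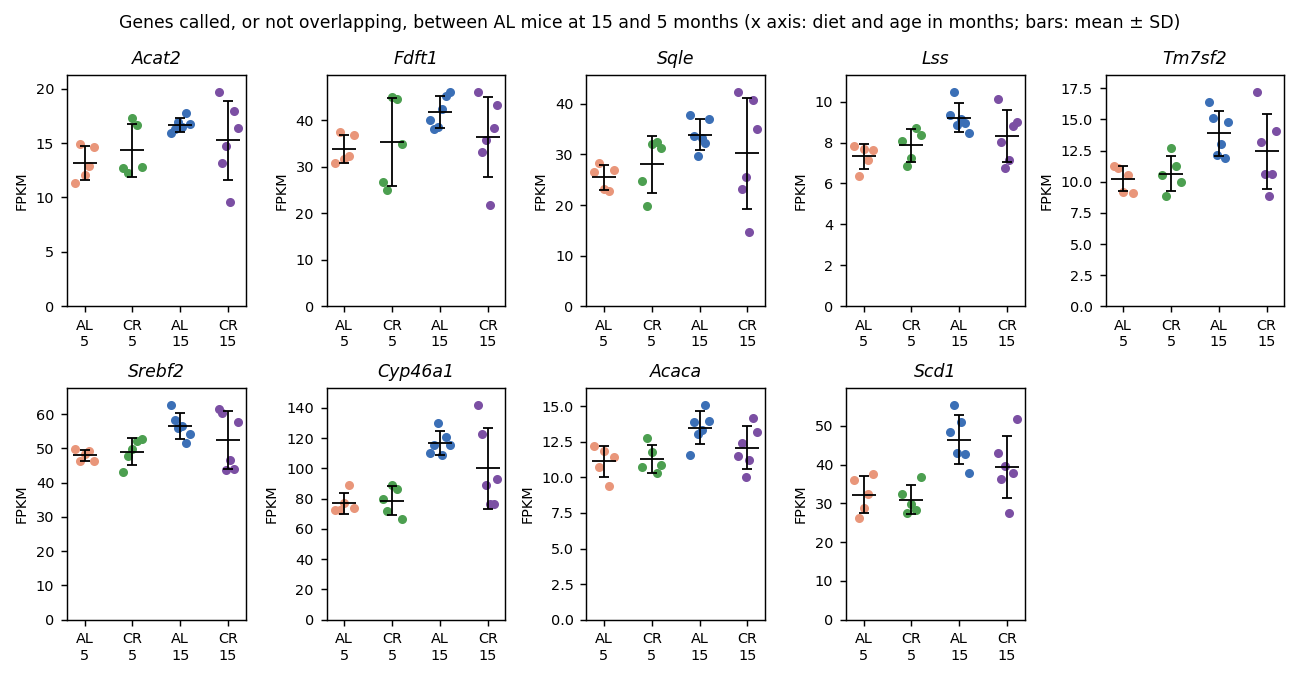
FPKM of 9 genes (y axes, from 0) in every library of the 4 groups on the x axis, given as diet and age in months; points are libraries, the horizontal bar is the mean and the error bar the SD (n = 5 at 5 months, n = 6 at 15 months). In 8 panels every AL library at 15 months lies above every AL library at 5 months, Acaca overlaps, and the CR libraries at 15 months spread over both.

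Among the regulators none passed the test with age in AL mice. Srebf2, the SREBP that drives sterol genes, came closest: AL mice at 5 months gave 49.7, 46.4, 48.3, 49.1 and 46.2 FPKM, and AL mice at 15 months 51.6 through 56.3 to 62.6 FPKM. The groups did not overlap, and the log2 difference was 0.24 ± 0.09 (SE; adjusted p = 0.0597, limma). Its CR values were 42.9, 47.7, 49.7, 52.2 and 52.6 FPKM at 5 months and 43.7 through 52.3 to 61.6 FPKM at 15 months. The older CR mice fell into a lower set of 3 at 43.7, 44.1 and 46.7 FPKM and an upper set of 3 at 57.8, 60.3 and 61.6 FPKM.

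Insig1, a sterol-responsive anchor of the Scap complex and itself a SREBP target, gave 25.9 through 27.4 to 31.4 FPKM in AL mice at 5 months and 25.5 through 35.4 to 42.6 FPKM at 15 months. Insig2, its counterpart that is less tied to SREBP, ran the other way, from 23.1 through 25.8 to 30.2 FPKM to 20.6 through 23.6 to 26.9 FPKM. Both overlapped between ages. Of the 5 regulators Scap had the smallest difference, at 27.9 ± 0.71 FPKM (SD, n = 5) and 28.5 ± 2.84 FPKM (SD, n = 6). Srebf1, which favours fatty acid genes, gave 15.4 ± 2.10 FPKM (SD, n = 5) and 17.2 ± 3.24 FPKM (SD, n = 6).

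Cyp46a1 (chr12:108334381-108362234) showed the clearest separation of the 32 genes. AL mice at 5 months gave 72.2, 72.2, 77.1, 88.9 and 73.9 FPKM, and CR mice of that age 79.7, 72.1, 89.1, 86.1 and 66.4 FPKM. AL mice at 15 months ran from 108.5 through 115.5 to 129.6 FPKM, above every library of either diet at 5 months. CR mice at 15 months gave 76.45 through 91.0 to 141.8 FPKM, with 1 mouse above the AL range of that age, 1 within it and 4 below it. The rise with age in AL mice had a log2 fold change of 0.60 ± 0.13 (SE; adjusted p = 0.00338, limma), higher than the younger mean in 6 of 6 mice. It was called without any single library, and was not called with the region score as a covariate (0.52, adjusted p = 0.318).

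Of the other transport and export genes, Stard4, a cytosolic sterol carrier, had the widest spread. It gave 7.62, 7.67, 5.58, 4.55 and 7.13 FPKM in AL mice at 5 months, 6.83 through 9.51 to 11.97 FPKM in AL mice at 15 months and 3.42 through 7.61 to 11.01 FPKM in CR mice at 15 months. The efflux pump Abca1 gave 6.50 ± 0.94 FPKM at 5 months (SD, n = 5) and 5.98 ± 0.72 FPKM at 15 months (SD, n = 6) in AL mice, and its partner Abcg1 gave 14.2 ± 0.99 and 15.9 ± 1.53 FPKM. Apoe gave 800 ± 87.7 FPKM and 691 ± 84.7 FPKM. All 4 overlapped between ages and missed the threshold (adjusted p from 0.144 to 0.553, limma).

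The heat map of the 32 genes shows how the rows moved library by library.

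**Figure D2:**
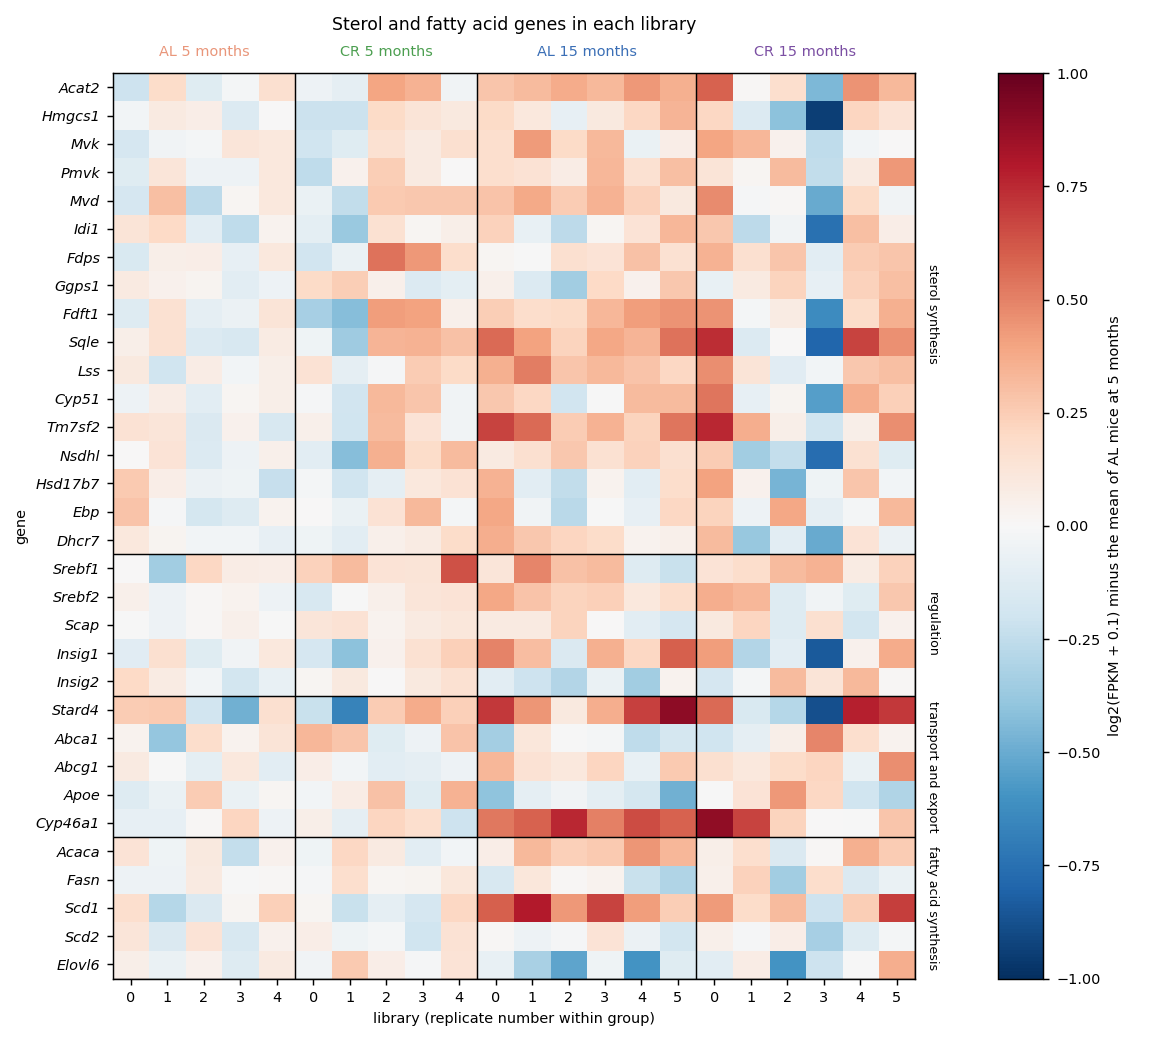
Each cell is 1 gene (rows, in 4 blocks by role) in 1 library (columns, by group and replicate number), coloured by log2(FPKM + 0.1) minus the mean of AL mice at 5 months, from -1 (blue) to 1 (red). Most sterol rows are red in AL mice at 15 months (17 of 17 means higher as deposited, 14 and 15 in the other scalings), and CR 15 months replicate 3 is a blue column through most sterol rows.

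Of the 5 fatty acid synthesis genes 2 were called with age in AL mice, Scd1 and Acaca, both higher, and Elovl6, Fasn and Scd2 did not pass the test. Scd1 (chr19:44394455-44407879), a desaturase that makes oleate and palmitoleate, gave 36.0, 26.2, 28.9, 32.3 and 37.7 FPKM in AL mice at 5 months and 37.9 through 45.8 to 55.4 FPKM at 15 months. The groups nearly touched but did not overlap, and the log2 rise was 0.53 ± 0.13 (SE; adjusted p = 0.00896, limma), called without any single library. Acaca (chr11:84129672-84401651) gave 12.2, 10.7, 11.9, 9.39 and 11.4 FPKM at 5 months and 11.6 through 13.6 to 15.1 FPKM at 15 months, an overlap of 1 older library with the younger group.

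The log2 rise of Acaca was 0.28 ± 0.09 (SE; adjusted p = 0.0329, limma). The call was lost in other scalings, at 0.23 (adjusted p = 0.0739) with a common median and 0.25 (adjusted p = 0.0518) after quantile normalization. It was also lost without AL 5 months replicate 1, 3 or 4 or AL 15 months replicate 1, 4 or 5 (0.22 to 0.29). Elovl6, which lengthens palmitate to stearate, gave 15.5, 14.3, 15.4, 13.6 and 15.9 FPKM at 5 months and 9.83 through 12.8 to 14.5 FPKM at 15 months, each of the 6 older mice below the younger mean. Its log2 difference of -0.28 ± 0.13 (SE) did not pass the threshold (adjusted p = 0.131, limma). Fasn, the synthase that builds palmitate, gave 40.7 ± 1.68 and 38.5 ± 4.39 FPKM, and Scd2 gave 233 ± 22.8 and 228 ± 16.6 FPKM (SD, n = 5 and 6), so neither differed beyond its spread.

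CR mice were compared between 15 and 5 months in the same way. None of the 32 genes was called by limma, beside 3.36% of all genes, and none separated its libraries, beside 3.26% of all genes. At an unadjusted p under 0.05 there were 3 of the 32, all higher at 15 months, beside 3049 of all genes (18.0%), 1474 higher and 1575 lower. Scd1 gave 32.4, 27.4, 29.9, 28.4 and 36.9 FPKM at 5 months and 27.6 through 38.8 to 51.6 FPKM at 15 months, a log2 difference of 0.33 ± 0.13 (SE; adjusted p = 0.192). It was called without CR 15 months replicate 3 (0.42, adjusted p = 0.0497), which was 1 of 36 alternatives, and in no other. Cyp46a1 differed by 0.31 ± 0.13 (SE; adjusted p = 0.199).

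Abcg1 gave 14.8, 13.9, 13.1, 13.3 and 13.6 FPKM in CR mice at 5 months and 13.4 through 15.9 to 19.5 FPKM at 15 months, a difference of 0.22 ± 0.08 (SE; adjusted p = 0.146). With an oligodendrocyte marker score as a covariate, 1 of 36 alternatives, it was called (0.27, adjusted p = 0.0284, limma), and in no other. Of the 17 sterol synthesis genes 12 were higher and 5 lower, with a median of 0.043 on the log2 scale. The direction turned with single libraries: 7 were higher without CR 5 months replicate 1 (median -0.037) and 6 without CR 15 months replicate 0 (median -0.028), against 15 without CR 15 months replicate 3 (median 0.11). The median was 0.00067 to 0.013 when replicate 0 at 5 months or replicate 4 or 5 at 15 months was left out, with 9 genes higher in each case. It was 0.069 when replicate 2 of the CR mice at 5 months was left out and 0.085 when replicate 3 was. A fit with the region covariate had 1 of 17 higher.

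At 5 months the comparison of CR with AL mice asked what the diet did after a short time of feeding. None of the 32 genes was called by limma, nor was any gene of the 16978 (0%), and none of the 32 separated its libraries, beside 1.36% of all genes. An unadjusted p under 0.05 was reached by 1 of the 32 and by 789 of all genes. That gene was Srebf1, at 15.3, 12.01, 17.7, 16.2 and 16.1 FPKM in AL mice and 18.0, 19.1, 16.9, 16.8 and 23.8 FPKM in CR mice. The fitted log2 difference was 0.29 ± 0.13 (SE; unadjusted p = 0.0339, adjusted p = 1, limma), and 1 CR mouse, replicate 4, stood well above the rest. Its library also had the highest sum of 5 choroid plexus markers, 234.7 FPKM against 2.43 to 57.8 FPKM in the other libraries at 5 months, whose part in the value was not tested. Without it the log2 difference of Srebf1 was 0.20 ± 0.13 (SE; unadjusted p = 0.121, limma). Of the sterol synthesis genes 14 had a higher mean in CR mice and 3 a lower one, with a median of 0.053. All 17 were higher without CR 5 months replicate 1 (median 0.12), and 10 without CR 5 months replicate 2 (median 0.0094). The median was 0.093 without replicate 0 and 0.022 without replicate 3 of the CR mice, and 0.031 without replicate 2 of the AL mice.

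At 15 months, after most of adult life on the diet, none of the 32 genes was called between CR and AL mice, beside 0.742% of all genes, and none separated its libraries, beside 0.984% of all genes. An unadjusted p under 0.05 was reached by 5 of the 32 and by 2902 of all genes. The AL libraries at 15 months serve both here and in the age comparison, so these results are not independent of each other.

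Dhcr7, which reduces 7-dehydrocholesterol to cholesterol in the last step, gave 14.5 through 16.3 to 18.2 FPKM in AL mice and 9.93 through 13.3 to 17.6 FPKM in CR mice. Nsdhl, a decarboxylase that removes methyl groups from the ring, gave 13.2 through 13.9 to 15.0 FPKM and 7.29 through 10.9 to 14.8 FPKM. For both, 5 of 6 CR mice lay under the AL mean. The log2 differences were -0.29 ± 0.11 (SE; adjusted p = 0.177) for Dhcr7 and -0.35 ± 0.14 (SE; adjusted p = 0.208) for Nsdhl.

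The Insig genes leaned in opposite directions. Insig1 gave 25.5 through 35.4 to 42.6 FPKM in AL mice and 15.7 through 27.6 to 37.7 FPKM in CR mice, a log2 difference of -0.37 ± 0.17 (SE; adjusted p = 0.276). Insig2 gave 20.6 through 23.6 to 26.9 FPKM in AL mice and 23.4 through 27.6 to 32.9 FPKM in CR mice, a difference of 0.26 ± 0.08 (SE; adjusted p = 0.129). Cyp46a1 differed by -0.26 ± 0.12 (SE; adjusted p = 0.290). Without CR 15 months replicate 0, Dhcr7 (-0.37, adjusted p = 0.0349, limma) and Insig2 (0.32, adjusted p = 0.0356, limma) were called. Each was called in only 1 of 36 alternatives, and the share of all genes called without that library is not given.

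As a list, 13 of the 17 sterol synthesis genes had a lower mean in CR than in AL mice at 15 months and 4 a higher one, with a median log2 difference of -0.16, beside -0.0012 over all genes. That lean rested on 1 library to a large extent: without CR 15 months replicate 3 it was 10 lower and 7 higher, with a median of -0.039. Leaving out CR 15 months replicate 0 instead widened the differences of Nsdhl to -0.44 and of Dhcr7 to -0.37. The fit with the region covariate had 8 lower and 9 higher. The test of whether the age difference itself differed between diets, the age by diet interaction, called none of the 32 genes and none of all genes (0%). At an unadjusted p under 0.05 it found 0 of the 32 and 1301 of all genes, so a difference in ageing between the diets was not shown for any of these genes, although 5 were called in AL mice and none in CR mice.

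**Figure D3:**
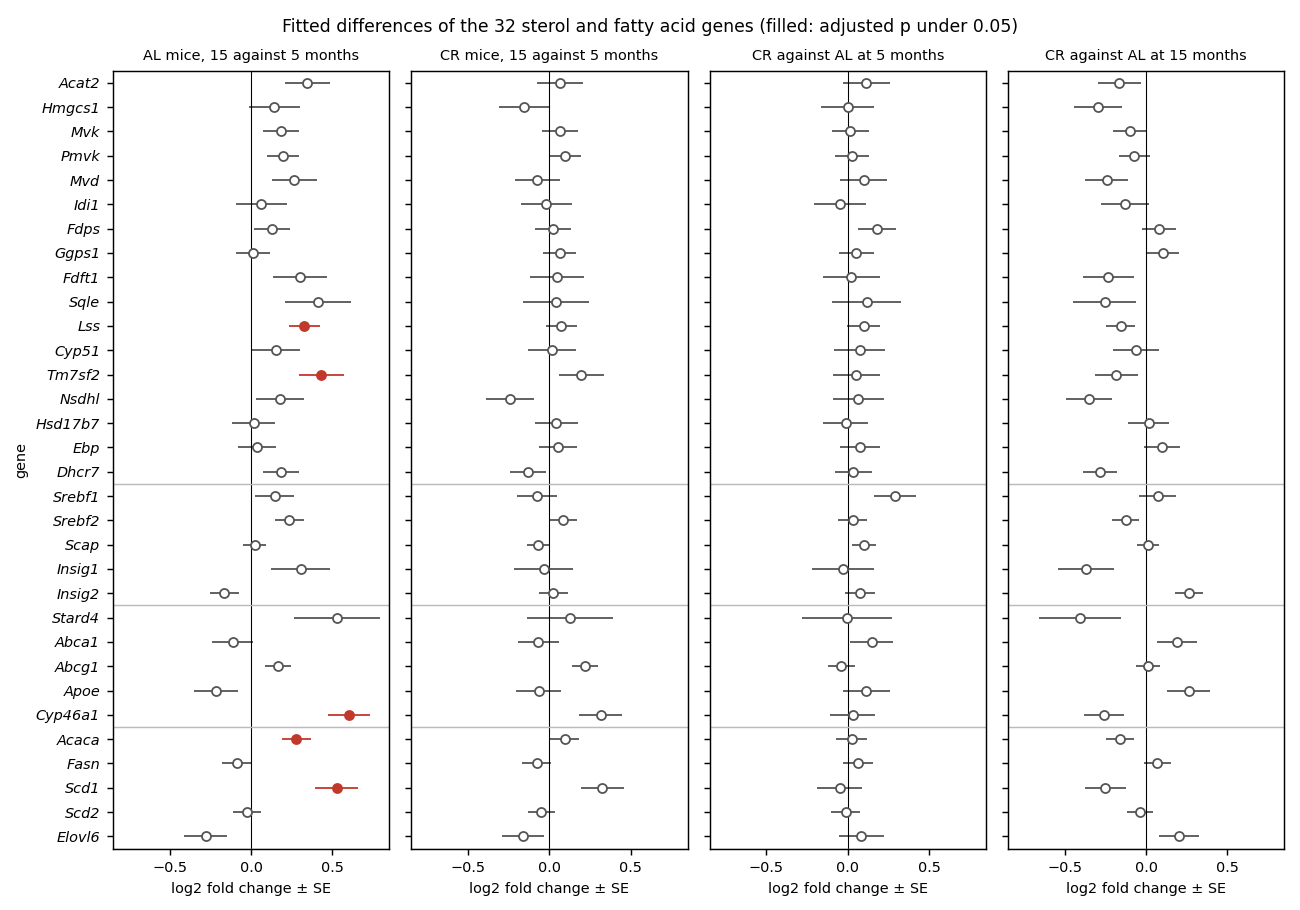
Fitted log2 fold changes (x axis, log2(FPKM + 0.1)) with their standard errors for the 32 genes (rows, grouped by role) in 4 comparisons; filled red points passed an adjusted p under 0.05. The 5 filled points are all in the comparison of AL mice at 15 and 5 months and lie between 0.28 and 0.60.

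The CR mice at 15 months differed more from each other in these genes than the AL mice did. The SD of log2 values was larger in CR than in AL mice at 15 months for 29 of the 32 genes (90.6%), beside 66.0% of all genes tested, and for 26 of 32 (81.2%) without CR 15 months replicate 3, beside 64.9%. For sterol synthesis genes the median SD was 0.12 in AL and 0.20 in CR mice at 5 months, and 0.13 and 0.32 at 15 months, while over all genes it was 0.16, 0.17, 0.20 and 0.25. No test was made of these spreads.

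Some libraries, not all, lay at the same end of their group in most sterol genes. CR 15 months replicate 3 was the lowest of its group in 15 of the 17 sterol synthesis genes and the lowest of all 22 libraries in 10 of them, beside 17.3% and 7.49% of all genes. CR 15 months replicate 0 was the highest of its group in 12 of 17, and CR 5 months replicate 1 the lowest of its group in 12. CR 5 months replicate 2 and AL 5 months replicate 1 were each the highest in 9. In AL mice at 15 months the library with the highest sterol mean was the highest in 5 of 17 and the one with the lowest mean was the lowest in 8, and at 5 months the one with the lowest mean was the lowest in 4. As a mean over the 17 genes, the CR mice at 15 months lay 0.38, -0.02, 0.01, -0.41, 0.22 and 0.20 on the log2 scale from the mean of AL mice at 5 months, for replicates 0 to 5. The AL mice at 15 months lay between 0.06 and 0.28, so 2 of the 6 CR mice were within that range, 1 above it and 3 below it.

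The sums of the dentate gyrus markers in the same 6 CR mice were 8.41, 23.2, 83.2, 95.2, 52.7 and 8.25 FPKM, for replicates 0 to 5, and replicates 3 and 2 were the highest of all libraries. The orders were alike only in part: the library with the lowest sterol mean had the highest sum, but replicate 4, with 52.7 FPKM, had a sterol mean of 0.22, beside 0.20 in replicate 5, and replicate 1 lay below replicate 2 in sterol mean with a lower sum. Their part in the spread was not tested. Leaving both high libraries out left 10 of the 17 sterol synthesis genes lower in CR than in AL mice at 15 months, with a median of -0.0086. That fit gave 8 of the 32 genes called with age in AL mice, Acat2, Sqle and Srebf2 added to the 5. The AL libraries were the same there and the estimate of the spread was smaller. The shares of all genes called in that fit and the next are not given, so these counts are not read as a result about these genes. With a dentate gyrus score as a covariate 1 gene, Cyp46a1, was called with age in AL mice (0.45). The region markers followed the sterol means of the same 6 CR mice more closely. Neocortex and subiculum markers had mean log2 values of 4.37, 4.002, 3.954, 3.253, 3.398 and 4.705 for replicates 0 to 5. CA1 markers had 4.052, 5.793, 4.692, 5.575, 3.207 and 4.839. The former minus the latter ranked the 6 mice in the same order as their sterol means. In each of the other groups the orders differed, though the same library was lowest in both. Among AL mice at 15 months, replicate 4 had marker values of 4.426 and 3.302 and a sterol mean of 0.18. Replicate 3 had 4.445 and 4.897 and a sterol mean of 0.21. The part of the region markers in the spread was not tested.

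**Figure D4:**
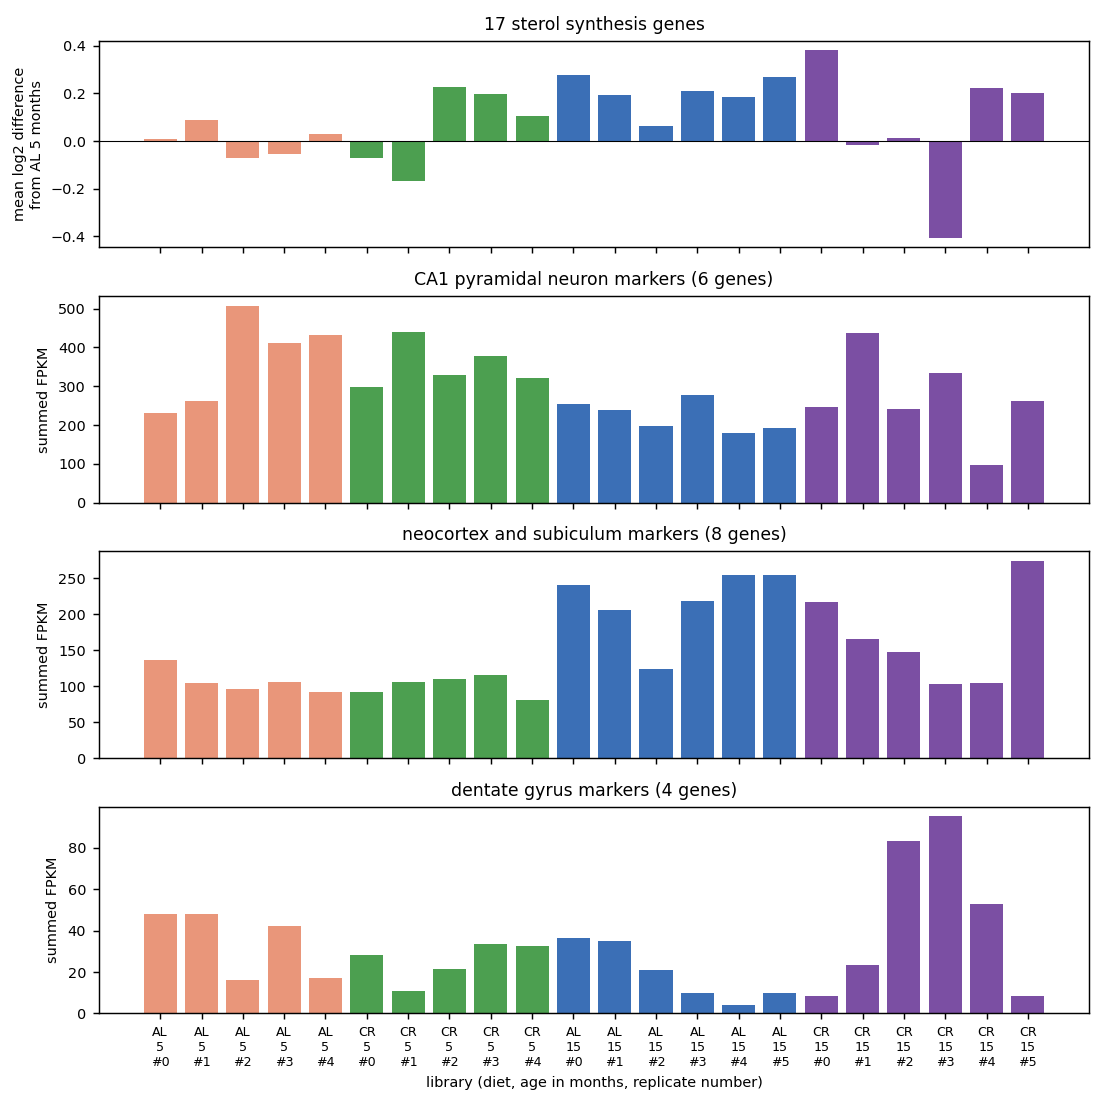
Bars per library (x axis: diet, age in months and replicate number, all from 0) of the mean log2 difference of the 17 sterol synthesis genes from AL mice at 5 months, and of the summed FPKM of CA1, neocortex and subiculum, and dentate gyrus markers. CR 15 months replicate 3 has the lowest sterol bar, at -0.41, and the highest dentate gyrus bar, at 95.2 FPKM.

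Further genes of the same pathways were listed beside the 32: 5 of SREBP and LXR control, 13 of uptake, storage and efflux, and 16 of fatty acid synthesis, elongation and desaturation. In AL mice with age 1 of the 5, 2 of the 13 and 1 of the 16 were called, beside 20.6% of all genes, those of uptake, storage and efflux higher and the others lower at 15 months. Lrp8, an Apoe and reelin receptor of neurons, rose by 0.35 ± 0.10 on the log2 scale (SE; adjusted p = 0.0167, limma), and Ch25h, a cholesterol 25-hydroxylase with a mean of only 0.37 and 0.67 FPKM, by 0.70 ± 0.23 (SE; adjusted p = 0.0384).

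Those that fell were Mylip, the ubiquitin ligase that removes lipoprotein receptors, and Thrsp, a regulator of lipogenesis. Mylip gave 10.8, 11.5, 17.3, 12.02 and 11.2 FPKM in AL mice at 5 months and 6.62 through 8.002 to 8.97 FPKM at 15 months, with no overlap (log2 fold change -0.64 ± 0.15, SE; adjusted p = 0.00532, limma). Thrsp gave 33.5, 34.9, 22.8, 29.9 and 27.1 FPKM and 10.2 through 15.9 to 27.2 FPKM, with overlap (-0.88 ± 0.27, SE; adjusted p = 0.0272, limma). Of the 16 further fatty acid genes 3 were higher and 13 lower, with a median of -0.12 and 1 call. None of the genes of these 3 lists was called by limma in CR mice with age, between the diets at either age, or in the interaction, in which 5, 1, 1 and 3 of them in that order (the younger age before the older) had an unadjusted p under 0.05, beside 18.0%, 4.65%, 17.1% and 7.66% of all genes.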

How the data were processed

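Hippocampal CA1 mRNA was sequenced from 22 mice, grouped by the diet and age in their labels, 1 library per mouse. The FPKM matrix is used as the authors deposited it: the authors aligned reads to mm10 with TopHat, removed duplicates with Picard and estimated FPKM with Cufflinks, correcting for fragment bias and for reads mapping to several places. Versions and the annotation release are not given in the sources used here. Libraries were spread over several sequencing runs, and which library was in which run is not given in the sources used here. The study's own calls came from Cuffdiff, which needs reads, so limma 3.58.1 in R 4.3.3 was used.

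The 16978 genes whose mean FPKM reached 0.1 were fitted as log2(FPKM + 0.1) with 4 group means in 1 model (lmFit, contrasts.fit, eBayes with an intensity trend), which understates the change of low genes. Tests were two-sided, with Benjamini-Hochberg adjustment over all genes within each of 5 contrasts. The fit was also tested on simulated data with known differences. Tables and figures were made with Python 3.11.15, pandas 2.3.3, numpy 2.4.6 and matplotlib 3.10.9. The genes and lists were chosen with earlier results of these data known. All 32 genes are named. A fold change is printed where a gene was called or had an unadjusted p under 0.05, and library values where it was called, did not overlap between groups or helped to show a spread. Of the further pathway genes in the lists given, those called are named. Some further sterol genes are not reported here. Gene overlaps are from GENCODE M21 on GRCm38. The alternatives were pseudocounts of 1 and 0.01, other filters and scalings, no trend, separate fits, a replicate block, marker scores as covariates and each library left out. The dentate gyrus covariate and the omission of 2 libraries were chosen after seeing the data.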

Additional observations from a re-analysis of the deposited data

Results flagged for a closer look

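Over 128 combinations of gene and group, 1 held a library far from the others by Dixon's criterion, where chance passes about 1 group in 20. It was Cyp46a1 in AL mice at 5 months, where replicate 3 gave 88.9 FPKM and the next library 77.1 FPKM, a gap of 0.71 of the group's range. This library raised the younger mean, and every AL library at 15 months was still above it.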

How the results depend on the processing

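The number of the 32 genes called with age in AL mice, 5, was 3 after a shift of the libraries to a common median, 12 in a separate fit of the AL groups, 0 with the region score, 3 with the astrocyte score and 1 with the dentate gyrus score as a covariate, and 8 without the 2 libraries of CR mice at 15 months with high dentate gyrus markers. Leaving out single libraries gave 3 to 6. Apart from the region score, the share of all genes called in each of these fits is not given. It was 20.6% in the main fit. The counts show how far the calls depend on the setting and are not read as a result about these genes. With the region score 7 of the 32 had an unadjusted p under 0.05, 0 of all genes were called, and the difference of Acat2 turned to -0.15. For CR mice with age the number was 1 with the oligodendrocyte score, and 0 to 1 without single libraries. Between CR and AL mice at 15 months it was 0 to 2 without single libraries, at 5 months 0 to 0, and for the interaction 0 to 0. Among the alternative values of the printed fold changes, 569 kept their direction and side of the threshold, 14 passed it anew, 28 no longer passed and 1 reversed. The causes were not tested. Over all settings and fits, 36 in number, Cyp46a1 was called with age in AL mice in 35, Scd1 in 34, Lss in 33, Tm7sf2 in 26 and Acaca in 24. With the replicate number as a block the number called was 5 for AL mice with age and 0 in each other comparison. Same-numbered libraries made 31 pairs, whose deviations from their group means had correlations that ran from -0.139 to 0.163 and lay above 0.1 in 2, so the libraries share only a number. The depth behind each library's values is unknown here, and differences smaller than the spread between mice could not be resolved.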
